A study of Mus musculus with 16 samples.

Results

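Ch5, Ch7 and Ch8 are male neural progenitor cell (NPC) clones, and the comparison among them rests on their 6 RNA-seq libraries, 2 for each clone, out of 16 libraries in the series. The libraries were taken by the clone named in their label. The choice of these 3 clones was made with earlier results of these data known. Embryonic stem cells from a cross of a 129Sv mother and a Cast/EiJ father were differentiated in N2B27 medium, expanded with EGF and FGF2 at 10 ng/mL each, and picked by hand as single colonies after limited dilution. All 3 clones therefore share the parental genomes, the medium, the growth factors and the ribosomal RNA depletion of their libraries, and the labels name no treatment or engineered change that separates them. Genetic differences that arose in a clone were not tested. Each clone is 1 line, so a difference between clones is a difference between those lines, and whatever was done to both libraries of a clone cannot be told apart from the clone itself. The labels do not say whether the 2 libraries of a clone came from separate cultures, and the p-values measure only the spread between them. The reads were 75 or 100 bases long, and since the length of each library is not given in the sources used here, its part was not tested.

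NPCs are dividing cells of the neural lineage that keep their state under EGF and FGF2 and can form neurons and glia. Cells picked from 1 population carry the same genes, yet a clone passes on its own pattern of gene activity to its daughters. At some genes that pattern includes the choice of allele: random monoallelic expression means that 1 clone transcribes the maternal copy, another the paternal copy, and a further clone both. In an F1 hybrid the copies differ by SNPs, so reads over a SNP can be assigned to the Cast or the 129 allele. The question here was which genes differed in total expression among the 3 clones, and whether the same genes also differed in their allelic ratio, the percentage of allele-specific reads from Cast.

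The 6 libraries held 24646854 to 30920672 reads on genes, of which 18.9 to 21.1% were allele-specific. The summed level of 12 progenitor markers ranged from 5219 to 6102 CPM (read counts per 1000000 reads on genes, with the library totals scaled by TMM), with Fabp7 at 1415 to 1984 CPM. The 6 astrocyte markers summed to 127 to 188 CPM, the 6 neuron markers to 15.1 to 21.9, the 6 oligodendrocyte lineage markers to 4.80 to 9.15, and the 7 mesenchymal or endothelial markers to 21.1 to 29.1. The 6 stem cell markers summed to 2.56 to 4.16 CPM, with Zfp42, Dppa5a and Tdgf1 at 0 reads in every library. The X chromosome was read almost wholly from 129 (0.258 to 0.289% Cast) in these clones labelled male, while the Y-linked genes Ddx3y, Eif2s3y, Usp9y, Zfy1 and Sry gave 4 reads in all over the 6 libraries. Chromosome 12 was read almost wholly from Cast in Ch5, Ch7 and Ch8 (99.8% of its allele-specific reads in each), and the median gene of chromosome 1 stood at 32.2, 32.6 and 32.4% Cast in these clones. On every other autosome the median lay between 48.6 and 50.3%. These features were shared by the 3 clones, and the allelic results below are given without chromosomes 1 and 12 as well. Library 1 of Ch8 had the largest share of its reads in its 10 most abundant genes, 26.9% against 19.2 to 25.2% in the other 5.

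Of 16669 genes tested, 1112 (6.67%) differed in total expression among the 3 clones by the overall quasi-likelihood test of edgeR, at an adjusted p under 0.05. Between their highest and lowest clone these genes differed by a median of 0.99 on the log2 scale, with quartiles of 0.63 and 1.65, against a median of 0.27 over all genes tested. For 546 of them the difference was at least 1 (at least 2-fold), and for 82 at least 3. Ch5 was the highest clone for 413 of the 1112 genes (2.48% of those tested), Ch7 for 423 (2.54%) and Ch8 for 276 (1.66%), while Ch8 was the lowest for 439, Ch5 for 341 and Ch7 for 332. Both libraries of a clone lay above the other 4 in 358 called genes for Ch5, 367 for Ch7 and 226 for Ch8, and below them in 289, 275 and 360. The test itself favours genes whose clones lie apart, and the same counts over all genes tested are not given here. These counts are therefore a description of the called genes only. By pairs, 429 genes (2.57%) were higher and 356 (2.14%) lower in Ch7 than in Ch5, 262 (1.57%) were higher and 375 (2.25%) lower in Ch8 than in Ch5, and 216 (1.3%) were higher and 383 (2.3%) lower in Ch8 than in Ch7. The pairs share libraries and are not independent of each other, and 56 genes passed all 3 of them. When the libraries were scaled by their totals alone, the split became 266 higher and 484 lower for Ch7 against Ch5, and 194 higher and 457 lower for Ch8 against Ch5, so the balance of directions in those pairs depended on the scaling. The overall count was 452 without library 1 of Ch7, 461 without library 2 of Ch7 and 719 without library 1 of Ch5. The pair counts followed: 190 and 203 genes differed between Ch7 and Ch5 without library 1 or 2 of Ch7, and 308 without library 1 of Ch5, while 159 and 178 differed between Ch8 and Ch7 without library 1 or 2 of Ch7. Between Ch8 and Ch5 the count was 288 without library 1 of Ch5, and 423, 378 and 364 without library 2 of Ch5 and libraries 1 and 2 of Ch7. The Ch7 to Ch5 count also fell to 441 without library 2 of Ch5.

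Some genes had few or no reads in Ch5, and such genes were also found for Ch7 and Ch8. Slc50a1, a sugar transporter (chromosome 3, 89268246 to 89270591, GRCm38), had no read in either Ch5 library, 12.1 and 11.3 CPM in Ch7 and 5.78 and 5.68 CPM in Ch8 (overall adjusted p = 1.91e-05). Cnrip1, which encodes a protein that binds the cannabinoid receptor (chromosome 11, 17051859 to 17079372), likewise had no read in Ch5, with 5.61 and 5.51 CPM in Ch7 and 11.2 and 11.3 in Ch8 (overall adjusted p = 1.93e-05). With 3 reads over both Ch5 libraries as the floor, Slc50a1 was at least 214-fold lower in Ch5 than in Ch7, and Cnrip1 at least 207-fold lower than in Ch8. Neither gene overlapped between any of the clones, and the order of Ch7 and Ch8 was opposite in the 2 genes. Camk1, a calcium and calmodulin-dependent kinase, was at 0.512 and 0.622 CPM in Ch5, 10.98 and 15.8 in Ch7 and 21.5 and 22.4 in Ch8, and so was 38.7-fold higher in Ch8 than in Ch5 (log2 difference 5.27 ± 0.25 (SE), Ch8 minus Ch5, adjusted p = 1.29e-05). Ndn, the imprinted growth suppressor necdin, was at 6.52 and 5.41 CPM in Ch5, 33.7 and 56.1 in Ch7 and 31.9 and 58.1 in Ch8 (overall adjusted p = 0.00213). Its Ch5 values lay below all 4 others, although the libraries of Ch7 and of Ch8 differed among themselves. The allelic ratio of Ndn was 4.35% in Ch5, on 23 allele-specific reads, 51.1% in Ch7 and 50.6% in Ch8.

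Genes highest in Ch5 included a homeobox gene, a GATA factor and several membrane and matrix genes. Hoxd8, a positional homeobox gene, was at 6.14 and 6.46 CPM in Ch5, 0.473 and 0.595 in Ch7 and 0.673 and 0.921 in Ch8 (log2 difference -3.55 ± 0.27 (SE), Ch7 minus Ch5, adjusted p = 0.000254). Cav2, which encodes a protein of caveolae, was at 7.95 and 6.38 CPM in Ch5, 0.743 and 0.893 in Ch7 and 1.94 and 1.88 in Ch8 (overall adjusted p = 0.000245). Anxa1, a calcium-dependent phospholipid-binding protein, was at 5.32 and 5.48 CPM in Ch5, 0.845 and 0.632 in Ch7 and 1.505 and 1.42 in Ch8 (overall adjusted p = 0.000491). In Cav2 and Anxa1 Ch7 was the lowest clone and Ch8 lay between, with no overlap of the 3 clones. Gata4, a transcription factor of heart and endoderm, was at 10.9 and 12.3 CPM in Ch5, 3.85 and 2.38 in Ch7 and 2.69 and 4.19 in Ch8 (overall adjusted p = 0.00337), so that Ch7 and Ch8 overlapped each other and Ch5 stood above both. The other genes of this group were 3.39 to 4.20 times higher in Ch5 than in the lowest clone. They were Ctgf (Ccn2), a secreted matrix-associated protein, and Pcdhb22, a clustered protocadherin, both lowest in Ch8, and F11r, a junctional adhesion molecule, and Kcnv1, a modifier subunit of potassium channels, both lowest in Ch7.

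Ch7 was marked by a high level of a glial adhesion gene and by a near loss of reads of a gelatinase. Hepacam, a cell adhesion molecule of glia, was at 10.4 and 10.1 CPM in Ch5, 44.5 and 38.5 in Ch7 and 10.2 and 10.4 in Ch8 (log2 difference 2.01 ± 0.11 (SE), Ch7 minus Ch5, adjusted p = 5.35e-05). The Ch7 libraries stood apart from the other 4, which lay close together. Cul9, a scaffold of ubiquitin ligases, was at 0.478 and 0.661 CPM in Ch5, 11.2 and 10.1 in Ch7 and 0.713 and 0.499 in Ch8 (overall adjusted p = 1.91e-05), and the libraries of Ch5 and Ch8 overlapped. Olfr1152, an olfactory receptor, was at 0.921 and 0.661 CPM in Ch5, 5.27 and 5.73 in Ch7 and 0.871 and 0.499 in Ch8. It belongs to a large gene family and had no allele-specific read, so its counts are uncertain. Nlrx1, a mitochondrial member of the NOD-like receptor family, Paqr7, a membrane progestin receptor, Tmem132e and Pcdhb18 were 3.73 to 5.20 times higher in Ch7 than in Ch5.

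Mmp2, the gelatinase that degrades basement membrane collagen, was at 25.7 and 29.6 CPM in Ch5, 1.45 and 2.23 in Ch7 and 49.1 and 54.4 in Ch8. The 3 clones did not overlap, and the gene was 15.1-fold higher in Ch5 than in Ch7 and 28.2-fold higher in Ch8 than in Ch7 (log2 difference 4.82 ± 0.18 (SE), Ch8 minus Ch7, adjusted p = 3.48e-06). Renbp, a renin-binding protein encoded on the X chromosome, was at 17.6 and 19.4 CPM in Ch5, 1.45 and 1.71 in Ch7 and 13.1 and 15.6 in Ch8 (overall adjusted p = 1.91e-05). The small RNA gene listed under the symbol Vault, an RNA of the vault particle, was at 137 and 149 CPM in Ch5, 0.777 and 0.781 in Ch7 and 178 and 128 in Ch8 (overall adjusted p = 3.32e-06). Both were low in Ch7 alone, and for Vault the libraries of Ch5 and Ch8 overlapped. Lama4, a laminin chain of basement membranes, was at 2.12 and 2.49 CPM in Ch5, 0.169 and 0.335 in Ch7 and 19.6 and 18.5 in Ch8 (overall adjusted p = 7.08e-06), so that it was lowest in Ch7 and highest in Ch8.

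Ch8 had hardly any reads of some genes that Ch5 and Ch7 both expressed. Pou3f4, an X-linked POU-domain factor of neural development, was at 43.96 and 48.1 CPM in Ch5, 54.4 and 54.6 in Ch7 and 0.277 and 0.154 in Ch8 (overall adjusted p = 7.57e-07). Pla2g7, the phospholipase that inactivates platelet-activating factor, was at 32.4 and 32.8 CPM in Ch5, 17.8 and 16.7 in Ch7 and 0.277 and 0 in Ch8 (overall adjusted p = 1.91e-05). Both Ch8 libraries lay far below the other 4 in these genes, and for Pla2g7 the level was also 1.89-fold higher in Ch5 than in Ch7. Cxx1a, an X-linked gene with near-identical copies beside it, had no read in Ch8, 10.7 and 12.9 CPM in Ch5 and 12.2 and 12.4 in Ch7, at least 211-fold lower in Ch8 than in Ch7. Rps4y2, a relative of a ribosomal protein gene, was at 26.9 and 34.8 CPM in Ch5, 24.2 and 25.4 in Ch7 and 0.277 and 0.154 in Ch8. Neither Cxx1a nor Rps4y2 had an allele-specific read, and how the counting treated reads shared with related copies is not given in the sources used here.

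Genes highest in Ch8 included enzymes and matrix genes. Npepl1, an aminopeptidase-like protein, was at 0.614 and 0.856 CPM in Ch5, 1.08 and 0.930 in Ch7 and 13.8 and 14.6 in Ch8 (overall adjusted p = 1.15e-05). Gstm5, a glutathione transferase, was at 0.546 and 0.428 CPM in Ch5, 0.0338 and 0 in Ch7 and 6.69 and 9.87 in Ch8 (overall adjusted p = 4.40e-05). Gstm5 had 1 read over both Ch7 libraries, and its level was 16.8-fold higher in Ch8 than in Ch5. In both genes the Ch8 libraries lay above the other 4. Cd93, a receptor of endothelial and myeloid cells, was 9.24-fold higher in Ch8 than in Ch7, and Gucy1b3, a subunit of the nitric oxide receptor guanylate cyclase, 5.18-fold higher in Ch8 than in Ch7. Emid2 (Col26a1), a collagen-like matrix protein, was 4.27-fold higher in Ch8 than in Ch7, and Fmo1, a flavin monooxygenase, 2.98-fold higher in Ch8 than in Ch5. Slc50a1, Cnrip1, Gstm5, Cxx1a and a gene listed without a symbol (ENSMUSG00000099907.1, no read in Ch7 and Ch8) were the 5 genes with at most 3 reads over both libraries of a clone and a mean of at least 5 CPM in another, a limit chosen after the values were seen.

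**Figure D1:**
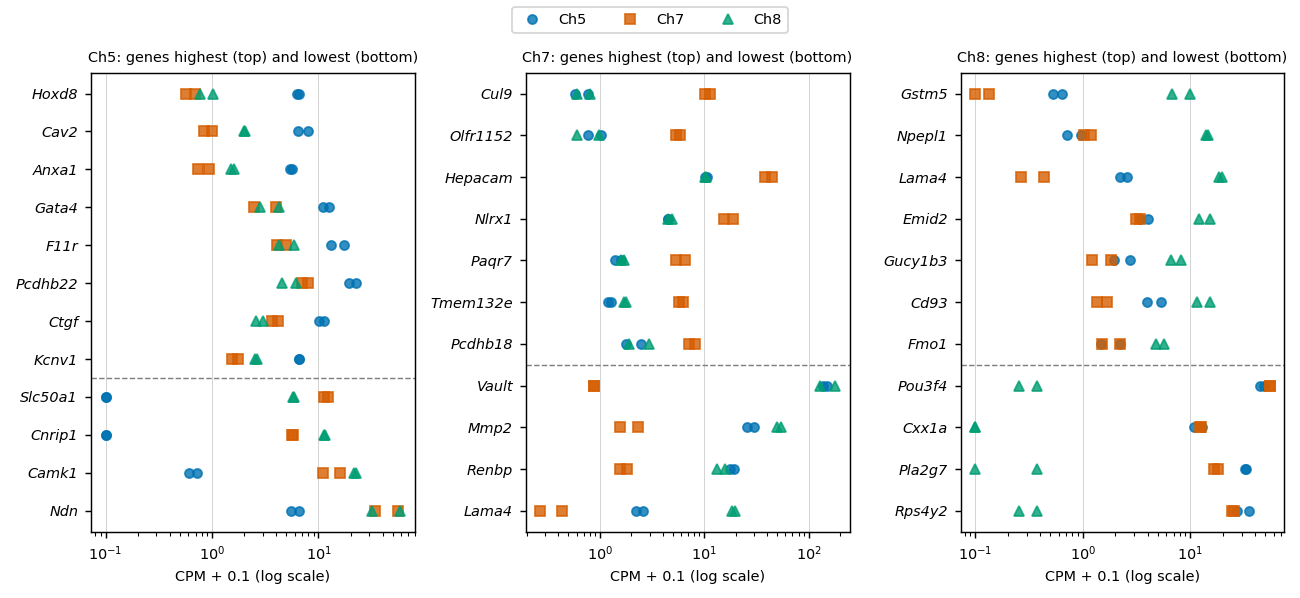
Level of the named genes in each of the 6 libraries, as CPM plus 0.1 on a log axis. Each panel holds genes that were highest (above the dashed line) and lowest (below it) in 1 clone, and the 2 libraries of the clone lie apart from the other 4 in every row, as the choice of the genes required. Slc50a1 and Cnrip1 lie at 0 CPM in both Ch5 libraries, Cxx1a in both Ch8 libraries.

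Gene lists by function were read against the 6.67% of all genes, with the median log2 difference of all genes at 0.0107 for Ch7 against Ch5 and 0.00238 for Ch8 against Ch5. The lists were chosen with earlier results of these data known. Members of a list are not independent of each other, and no set test was made.

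Of 17 astrocyte markers tested, 10 differed, 7 of them highest in Ch7 and 3 in Ch5, with a median log2 difference of 0.16 for Ch7 against Ch5. Clu, a secreted chaperone, was at 5.94 and 6.96 CPM in Ch5, 26.02 and 23.8 in Ch7 and 8.63 and 9.52 in Ch8 (overall adjusted p = 0.000105). Kcnj10, the inward rectifier potassium channel of glia, was at 12.4 and 10.8 CPM in Ch5, 36.9 and 31.1 in Ch7 and 17.4 and 15.8 in Ch8 (overall adjusted p = 0.000393). Gfap, the astrocyte intermediate filament, was at 1.67 and 0.739 CPM in Ch5, 4.39 and 2.64 in Ch7 and 0.436 and 0.461 in Ch8 (overall adjusted p = 0.0107). Ch7 was the highest clone in these 3 without overlap, as it was for Slc1a2, a glutamate transporter that was 2.68-fold higher in Ch7 than in Ch8, and for Fgfr3, 1.82-fold higher in Ch7 than in Ch5. The call of Gfap was lost without library 1 of Ch7, and that of Fgfr3 with library totals and without library 1 of Ch5 or either library of Ch7. Sparcl1, an extracellular matrix protein of astrocytes, went the other way, at 56.96 and 58.99 CPM in Ch5, 17.1 and 22.1 in Ch7 and 40.7 and 49.4 in Ch8. Aldh1l1, an enzyme of folate metabolism, was also highest in Ch5, at 18.9 and 19.2 CPM in Ch5, 10.2 and 11.4 in Ch7 and 9.46 and 8.79 in Ch8. The summed level of the 6 astrocyte markers used to check the label was 171 and 157 CPM in Ch5, 177 and 188 in Ch7 and 135 and 127 in Ch8. More cells in a glial state and more RNA of these genes per cell cannot be told apart in bulk RNA.

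Of 21 progenitor markers 5 differed, with smaller folds. With library totals the calls of Slc1a3, Hes5, Msi1 and Notch1 were lost. Slc1a3, a glutamate transporter of radial glia, had means of 669 CPM in Ch5, 874 in Ch7 and 613 in Ch8. Hes5, a Notch target, was at 24.8 CPM in Ch5, 45.7 in Ch7 and 36.2 in Ch8. Msi1, an RNA-binding protein of progenitors, was at 30.4 CPM in Ch5, 45.5 in Ch7 and 41.6 in Ch8. These 3 were highest in Ch7, Notch1 was highest in Ch8 and Lhx2 in Ch5. None of the 5 passed without library 1 or library 2 of Ch7, and 1 and 2 progenitor markers passed without library 1 and 2 of Ch5. Among 10 neuron markers 5 differed (1 without library 1 or 2 of Ch7, 3 without library 2 of Ch5). Gap43, a growth cone protein, was lowest in Ch8, at 56.7 and 61.8 CPM in Ch5, 55.3 and 54.7 in Ch7 and 23.96 and 28.1 in Ch8 (overall adjusted p = 0.000525), and the other 4 had means under 7 CPM in every clone. Those 4 had no common direction. Dcx was highest in Ch8 (3.02 CPM in Ch5, 2.97 in Ch7 and 6.09 in Ch8). Neurod1 was highest in Ch5 (1.56 CPM), and Dlx1 (1.18 CPM) and Snap25 (0.759 CPM) were highest in Ch7. Of 8 oligodendrocyte lineage genes 4 differed, a count that was 1 or 2 without a library of Ch5 or Ch7. Cspg4 (NG2), a proteoglycan of these precursors, was at 3.99 and 4.39 CPM in Ch5, 5.81 and 5.99 in Ch7 and 1.78 and 1.80 in Ch8 and was lowest in Ch8. Its allelic ratio was 100% in Ch5, 97.5% in Ch7 and 0% in Ch8, the last on 31 allele-specific reads. The other called lineage genes did not share this order. Bcas1 had means of 38.2 CPM in Ch5, 54.6 in Ch7 and 55.9 in Ch8, with the Ch7 and Ch8 libraries overlapping. Nkx2-2 was highest in Ch5 (1.53 CPM in Ch5, 0.331 in Ch7 and 0.331 in Ch8). Cnp was highest in Ch7 (43.9 CPM in Ch5, 60.6 in Ch7 and 42.3 in Ch8). None of 3 tested pluripotency genes differed.

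Hox genes, which record position along the body axis, differed by cluster. Of 19 tested, 11 differed, and the 7 that were lowest in Ch5 were all of the Hoxb cluster, where 8 genes were tested. Hoxb6 was at 4.06 and 4.59 CPM in Ch5, 31.8 and 29.01 in Ch7 and 46.2 and 47.1 in Ch8 (log2 difference 3.43 ± 0.11 (SE), Ch8 minus Ch5, adjusted p = 2.86e-06). Hoxb9 was at 2.56 and 1.79 CPM in Ch5, 9.70 and 12.1 in Ch7 and 19.4 and 18.5 in Ch8 (overall adjusted p = 0.000109). Hoxb8 was at 4.27 and 3.54 CPM in Ch5, 8.85 and 6.88 in Ch7 and 10.5 and 10.4 in Ch8 (overall adjusted p = 0.00480). In these 3 Ch5 was lowest and Ch8 highest, with no overlap. The call of Hoxb5, at 1.37 CPM in Ch5, 3.98 in Ch7 and 4.88 in Ch8, was lost without either library of Ch5. Hoxb7 had means of 9.15 CPM in Ch5, 12.1 in Ch7 and 16.04 in Ch8, Hoxb4 of 12.3 CPM in Ch5, 16.7 in Ch7 and 18.3 in Ch8 and Hoxb3 of 28.4 CPM in Ch5, 42.7 in Ch7 and 42.5 in Ch8, a smaller difference on the same side. The call of Hoxb4 was lost with library totals, in the fit with Ch3 and without any 1 library of Ch5 or Ch7, and that of Hoxb3 without library 1 of Ch5 or either library of Ch7. Hoxb2, at 15.4 CPM in Ch5, 22.5 in Ch7 and 24.3 in Ch8, did not pass the test (overall adjusted p = 0.0798). Both tested Hoxd genes were highest in Ch5: beside Hoxd8, Hoxd9 was at 0.648 and 0.778 CPM in Ch5, 0 and 0 in Ch7 and 0.0396 and 0 in Ch8, a call that was lost without library 2 of Ch5. Hoxc5 had reads almost only in Ch7, at 0.0683 and 0.194 CPM in Ch5, 2.33 and 1.90 in Ch7 and 0.0792 and 0.154 in Ch8. Of 7 tested Hoxa genes Hoxa7 alone passed, at 5.80 and 4.86 CPM in Ch5, 8.85 and 7.81 in Ch7 and 3.72 and 4.03 in Ch8, and its call was lost without either library of Ch7. The median log2 difference of the Hox list was 0.48 for Ch7 against Ch5 and -0.10 for Ch8 against Ch5.

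Of 25 other factors of regional identity 7 differed (4 without library 1 of Ch7). Irx1, a homeobox factor of the Iroquois family, had no read in Ch5, 3.41 and 4.09 CPM in Ch7 and 0.119 and 0.115 in Ch8. Dbx2, a factor of the neural tube, was at 7.88 and 8.05 CPM in Ch5, 24.5 and 25.9 in Ch7 and 16.3 and 22.9 in Ch8 (overall adjusted p = 0.00126). Pax7, a factor of dorsal progenitors, was at 0.512 and 0.583 CPM in Ch5, 2.13 and 2.16 in Ch7 and 2.89 and 2.53 in Ch8 (overall adjusted p = 0.00369). Ch5 was the lowest clone in these 3. Zic1, a dorsal zinc finger factor, was at 22.5 and 24.5 CPM in Ch5, 20.3 and 18.1 in Ch7 and 31.9 and 34.3 in Ch8 (overall adjusted p = 0.00531), and had an allelic ratio of 34.2% in Ch5, 1.89% in Ch7 and 50% in Ch8, so the clone with the lowest level was read almost wholly from 129.

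Several families of adhesion molecules held varying genes. Clustered protocadherins give neurons a surface identity through the combination each cell expresses. Of 23 tested, 11 differed (5 and 6 without library 1 and 2 of Ch7), all in the Pcdhb cluster on chromosome 18, 5 of them highest in Ch5, 6 in Ch7 and none in Ch8. Pcdhb6 was at 48.7 and 44.8 CPM in Ch5, 27.2 and 28.4 in Ch7 and 7.37 and 7.33 in Ch8 (log2 difference -2.67 ± 0.10 (SE), Ch8 minus Ch5, adjusted p = 4.80e-06). Pcdhb10 was at 5.32 and 4.82 CPM in Ch5, 13.2 and 13.3 in Ch7 and 7.44 and 7.76 in Ch8 (overall adjusted p = 0.00124). Pcdhb2 was at 6.18 and 5.83 CPM in Ch5, 2.16 and 2.27 in Ch7 and 4.79 and 4.30 in Ch8 (overall adjusted p = 0.00500), a call that was lost without either library of Ch7. Genes of 1 cluster thus had different highest clones. Pcdhb genes are similar in sequence and their counts may share reads. The 4 nonclustered protocadherins that passed, of 8 tested, were all lowest in Ch8 (2 passed without library 1 or 2 of Ch7). Pcdh10 was at 24.8 and 23.8 CPM in Ch5, 46.5 and 46.7 in Ch7 and 7.29 and 7.72 in Ch8 (overall adjusted p = 7.08e-06), and X-linked Pcdh11x was at 23.6 and 16.7 CPM in Ch5, 17.03 and 16.6 in Ch7 and 6.06 and 3.57 in Ch8 (overall adjusted p = 0.00275). Of 39 immunoglobulin adhesion molecules and partners 12 differed, 8 of them lowest in Ch8, with a list median of -0.19 on the log2 scale for Ch8 against Ch5. That count was 4 without library 1 or 2 of Ch7, 7 without library 1 of Ch5 and 8 without library 2 of Ch8. Cadm3 was at 4.85 and 5.37 CPM in Ch5, 10.1 and 9.71 in Ch7 and 1.74 and 2.07 in Ch8. Chl1, a relative of L1, was at 52.5 and 43.1 CPM in Ch5, 25.6 and 27.7 in Ch7 and 18.8 and 16.8 in Ch8, with an allelic ratio of 90.2% in Ch5, 46.1% in Ch7 and 86.7% in Ch8.

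Of 29 receptor genes for glutamate and GABA 11 differed (6 without library 1 or 2 of Ch7), and Ch8 was the lowest clone for 10 of the 11. The median member was -0.75 on the log2 scale in Ch8 against Ch5 and -0.19 in Ch7 against Ch5. Grik2, a kainate receptor subunit, was at 7.54 and 7.04 CPM in Ch5, 4.36 and 4.43 in Ch7 and 0.198 and 0.269 in Ch8 (log2 difference -4.94 ± 0.26 (SE), Ch8 minus Ch5, adjusted p = 2.22e-05). Grm5, a metabotropic receptor, was at 70.5 and 54.6 CPM in Ch5, 70.2 and 68.5 in Ch7 and 29.6 and 23.8 in Ch8 (overall adjusted p = 0.00146). Gria2, an AMPA receptor subunit, was at 34.98 and 23.4 CPM in Ch5, 27.04 and 24.5 in Ch7 and 13.3 and 10.3 in Ch8 (overall adjusted p = 0.00899). In Grm5 and Gria2 the Ch5 and Ch7 libraries overlapped and both Ch8 libraries lay below all 4. Gabbr1, a subunit of the GABA-B receptor, was the exception, 2.20-fold higher in Ch7 than in Ch5 and close in Ch5 and Ch8. Of 38 potassium channel genes 7 differed (4 without library 1 or 2 of Ch7), 4 of them lowest in Ch8. Kcnma1, the large-conductance channel, was among these, at 31.4 and 24.3 CPM in Ch5, 31.3 and 29.2 in Ch7 and 14.7 and 10.5 in Ch8.

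Genes of the extracellular matrix differed in several directions. Among 48 glycoproteins and proteoglycans 17 differed (9 without library 1 or 2 of Ch7), 8 of them highest in Ch5 and 8 lowest in Ch8. Tnc, the matrix protein tenascin C, was at 4765 and 4685 CPM in Ch5, 4171 and 4121 in Ch7 and 2706 and 2243 in Ch8 (log2 difference -0.93 ± 0.12 (SE), Ch8 minus Ch5, adjusted p = 0.00413). Thbs2 (thrombospondin 2), which limits vessel growth, was at 8.57 and 8.13 CPM in Ch5, 33.9 and 30.5 in Ch7 and 17.3 and 15.4 in Ch8 (overall adjusted p = 8.84e-05). Tnc was lowest in Ch8 and Thbs2 in Ch5, in both cases without overlap. Ncan, a brain proteoglycan, was 1.82-fold higher in Ch7 than in Ch8, and Lama1, a laminin chain, 1.87-fold higher in Ch7 than in Ch8. Of 25 collagens 7 differed (4 without library 2 of Ch7). Col11a1, a fibrillar collagen, was at 18.1 and 19.2 CPM in Ch5, 15.1 and 16.2 in Ch7 and 3.72 and 3.26 in Ch8 (overall adjusted p = 4.13e-05). Col9a3, a collagen associated with fibrils, was at 9.83 and 12.3 CPM in Ch5, 3.31 and 2.75 in Ch7 and 14.2 and 14.8 in Ch8 (overall adjusted p = 0.000321). Ch8 was the lowest clone for the former and the highest for the latter. The X-linked neighbours Col4a5 and Col4a6, chains of basement membrane collagen, were both highest in Ch7, Col4a6 at 4.27 and 4.74 CPM in Ch5, 11.7 and 10.8 in Ch7 and 3.60 and 4.45 in Ch8.

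Of 27 matrix proteases and inhibitors 10 differed, a count that was 4 and 6 without library 1 and 2 of Ch7. Beside Mmp2, the inhibitor gene Timp1 was near 0 in Ch7, at 2.63 and 3.11 CPM in Ch5, 0.0676 and 0.0744 in Ch7 and 0.475 and 0.346 in Ch8 (overall adjusted p = 0.000367). Of 12 mesenchymal and endothelial genes 7 differed (3 without library 1 or 2 of Ch7). Tbx18, a T-box factor of mesenchyme, was at 10.1 and 8.05 CPM in Ch5, 4.49 and 4.09 in Ch7 and 27.997 and 22.4 in Ch8 (overall adjusted p = 0.000130). Runx1, a factor of blood development, was at 1.64 and 1.63 CPM in Ch5, 5.44 and 5.28 in Ch7 and 9.19 and 7.45 in Ch8 (overall adjusted p = 0.000554). Both were highest in Ch8. Acta2 and Prrx1 also passed the test but were highest in Ch7 and lowest in Ch8, while Kdr was highest in Ch8 and lowest in Ch7. The calls of Acta2, Prrx1 and Kdr were lost without either library of Ch7. The defining markers Pecam1, Cdh5, Lum and Dcn had at most 0.422 CPM in any library, and the summed level of the 7 such markers did not follow the clones in a single order.

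Of 26 genes of amino acid synthesis and other targets of ATF4, the factor of the amino acid and stress response, 9 differed, 8 of them highest in Ch7 and 8 lowest in Ch5. The list median was 0.47 on the log2 scale for Ch7 against Ch5, and the count was 5 and 4 without library 1 and 2 of Ch7. Asns, asparagine synthetase, was at 52.9 and 53.9 CPM in Ch5, 103 and 109 in Ch7 and 77.1 and 81.8 in Ch8 (log2 difference 0.99 ± 0.09 (SE), Ch7 minus Ch5, adjusted p = 0.000433). Shmt2, the mitochondrial serine hydroxymethyltransferase, was at 109 and 118 CPM in Ch5, 209 and 200.5 in Ch7 and 148 and 158 in Ch8 (overall adjusted p = 0.00213). Slc6a9, the glycine transporter GLYT1, was at 7.51 and 8.98 CPM in Ch5, 22.9 and 19.7 in Ch7 and 12.7 and 11.9 in Ch8 (overall adjusted p = 0.00135). In these 3 genes Ch8 lay between Ch5 and Ch7 without overlap. Vldlr, a lipoprotein receptor, was the gene outside that pattern, with means of 31.7 CPM in Ch5, 24.8 in Ch7 and 16.8 in Ch8.

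Of 33 genes of glutathione and xenobiotic metabolism 12 differed (6 without library 1 or 2 of Ch5 or library 1 of Ch7, 5 without library 2 of Ch7). Gstp1, a glutathione transferase, was at 4.37 and 5.56 CPM in Ch5, 26.8 and 23.2 in Ch7 and 40.7 and 43.9 in Ch8 (overall adjusted p = 1.91e-05). Its near copy Gstp2, which may share reads with it, was at 1.91 and 1.98 CPM in Ch5, 6.08 and 6.29 in Ch7 and 9.19 and 13.2 in Ch8. Mt3, a metallothionein of brain, was at 49.3 and 55.1 CPM in Ch5, 136 and 140.4 in Ch7 and 107 and 126 in Ch8 (overall adjusted p = 0.000321). These 3 had their lowest values in Ch5. Nqo1, a quinone reductase, was highest there, at 21.6 and 23.5 CPM in Ch5, 12.2 and 13.1 in Ch7 and 17.1 and 20.004 in Ch8, a call that was lost without either library of Ch7. Of 27 CDK inhibitors and p53 targets 5 differed, all lowest in Ch7, and none of them without library 1 or 2 of Ch7 (2 without library 1 of Ch5, 3 without library 2 of Ch5).

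Lists of genes that run basic cell functions, and the list of imprinted genes, were close to or under the 6.67% of all genes. The cell-cycle list had 1 of 50 genes past the test, the cytoplasmic ribosomal proteins 1 of 74, hypoxia and glycolysis 2 of 35, the replication-dependent histones 3 of 51, the imprinted genes 2 of 32 and the mitochondrially encoded genes 1 of 15. These small counts moved with single libraries. The histone count was 10 without library 1 of Ch8, 11 without library 2 of Ch5, 6 without library 2 of Ch8, 1 without library 1 of Ch5 and 0 without either library of Ch7. The ribosomal protein count was 5 without library 1 of Ch8 and 0 without any other library. The mitochondrial count was 4 without library 2 of Ch5, 2 without library 1 of Ch8 and 0 without library 1 of Ch5 or either library of Ch7. The imprinted and the hypoxia counts were 1 without either library of Ch7, and the cell-cycle count 2 without library 2 of Ch5 or library 1 of Ch8.

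Among pathway lists, Notch had 3 of 25, BMP and TGF-beta 4 of 33, hedgehog 2 of 13, Wnt 7 of 37, and FGF, EGF and PDGF signalling 6 of 38. Lists this small move with single genes, so these shares were not read as above the 6.67% of all genes. Without library 1 or 2 of Ch7 the Wnt count was 3 and 2, and the Notch, hedgehog and FGF lists had none. Without library 1 of Ch5 the Wnt count was 4, the FGF count 2 and the Notch and hedgehog counts 0. The hedgehog count was 1 without library 2 of Ch5, and the FGF count was 12 without library 2 of Ch8. The BMP and TGF-beta count stayed between 3 and 5. Immune lists held 7 of 18 complement and innate immunity genes (3 without either library of Ch5, 2 without either of Ch7), 3 of 20 interferon-stimulated genes (6 without library 1 of Ch8) and 2 of 17 genes of MHC class I (1 without either library of Ch5 or library 1 of Ch7, 0 without library 2 of Ch7).

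Of 16 ephrins and Eph receptors 4 differed, a count that was 1 without library 1 of Ch5 or either library of Ch7 and 2 without library 2 of Ch5. Of 41 semaphorin, plexin, slit and netrin genes 5 differed (3 without library 1 of Ch5, 1 and 2 without library 1 and 2 of Ch7), and of 27 immediate-early genes 5 (1 and 2 without library 1 and 2 of Ch7, 3 without library 1 of Ch8). Of 31 genes of cholesterol and fatty acid synthesis 4 differed (2 without either library of Ch7), of 10 cadherins other than protocadherins 2 (1 without library 1 of Ch5 or either library of Ch7, 4 without library 1 of Ch8) and of 6 long noncoding RNAs 2 (1 without any 1 library). None of 5 small structural RNAs (2 without library 2 of Ch8) and 1 Y-linked gene passed.

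**Figure D2:**
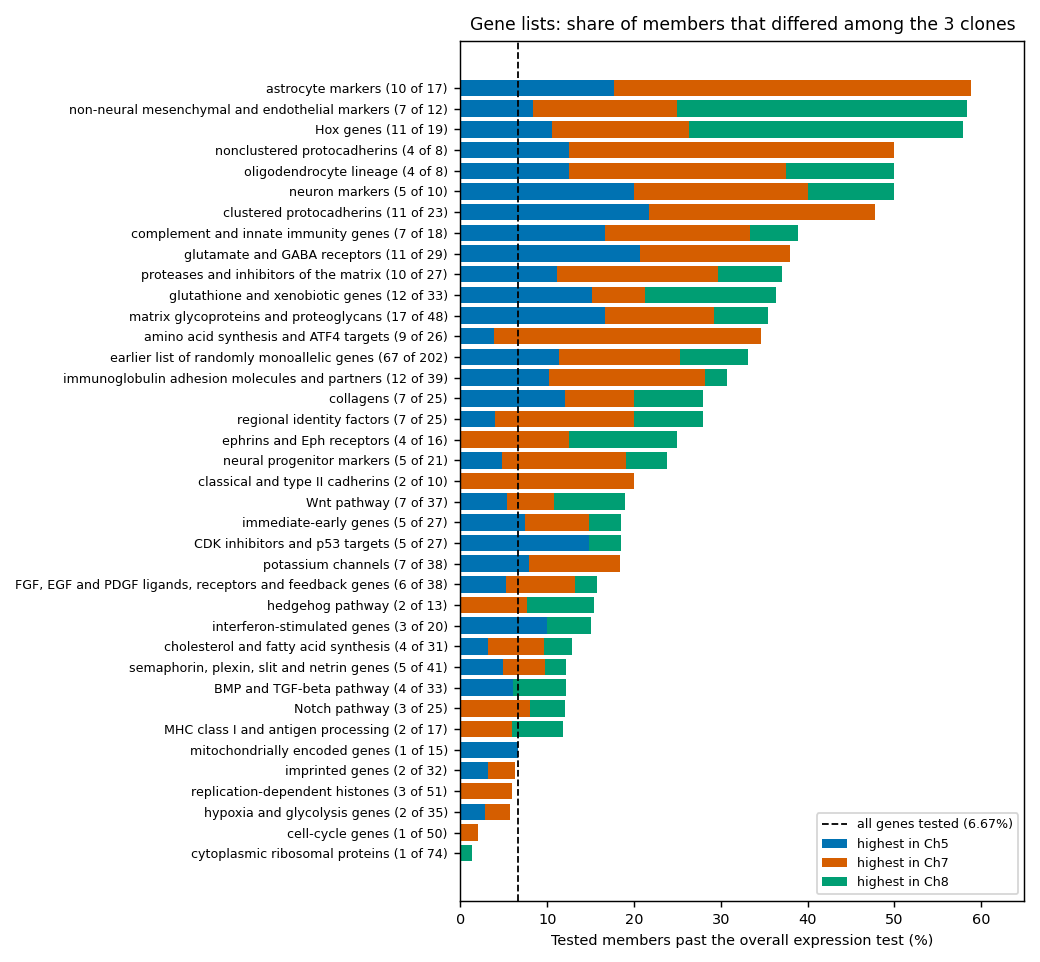
Share of the tested members of each gene list that passed the overall expression test, in percent, split by the clone with the highest mean, for lists with at least 8 members tested. The dashed line marks the 6.67% of all genes tested; astrocyte markers (10 of 17), mesenchymal and endothelial genes (7 of 12) and Hox genes (11 of 19) lie at the top, cell-cycle genes (1 of 50) and ribosomal proteins (1 of 74) at the bottom.

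The allelic ratio was then compared among the same clones. Of 10453 autosomal genes that had 20 or more allele-specific reads in every clone, 336 (3.21%) differed in allelic ratio by edgeR's quasi-likelihood test of Cast against 129 counts within libraries. Without chromosomes 1 and 12 and windows of 20 Mb of unequal allelic balance the count was 307 of 9409 (3.26%). For 192 of the 336 the ratios of the clones spanned at least 20 percentage points. Of the 336 genes 179 also passed the expression test, so that 53.3% of the allelic differences came with a difference in total expression, and 22.5% of the 794 expression-called genes in this set had an allelic difference. The allelic count was 218 without library 1 of Ch7 and 223 without library 2 of Ch7.

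Among genes past both tests with at least 50 allele-specific reads in every clone, the 12 with the widest ratio range were taken. Of these, 4 that turned from both alleles in 1 clone to almost a single allele in another are shown first by sequence. They were chosen after their values were seen. The bases are those just before a RefSeq start site (GRCm38.p6), with every CG dinucleotide, the site of DNA methylation in mammals, in capitals. Where transcription of each allele begins was not measured here.
Rfc3, chr5:151651209-151651458, minus strand: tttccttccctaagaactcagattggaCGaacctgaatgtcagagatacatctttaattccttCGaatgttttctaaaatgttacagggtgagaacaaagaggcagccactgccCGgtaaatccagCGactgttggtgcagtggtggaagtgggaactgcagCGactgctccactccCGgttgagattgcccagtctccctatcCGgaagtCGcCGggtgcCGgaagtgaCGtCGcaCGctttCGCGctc
Acyp2, chr11:30649397-30649646, minus strand: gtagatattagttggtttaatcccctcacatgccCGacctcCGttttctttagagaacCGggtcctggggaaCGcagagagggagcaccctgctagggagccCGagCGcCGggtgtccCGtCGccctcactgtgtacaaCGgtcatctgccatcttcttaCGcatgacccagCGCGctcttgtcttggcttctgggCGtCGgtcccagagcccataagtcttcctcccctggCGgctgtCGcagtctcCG
Asb13, chr13:3633782-3634031, plus strand: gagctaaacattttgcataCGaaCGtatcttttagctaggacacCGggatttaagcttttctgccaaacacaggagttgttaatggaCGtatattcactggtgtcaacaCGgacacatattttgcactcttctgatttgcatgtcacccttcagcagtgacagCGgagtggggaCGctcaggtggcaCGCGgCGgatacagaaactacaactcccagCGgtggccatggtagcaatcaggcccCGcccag
Gusb, chr5:130003050-130003299, minus strand: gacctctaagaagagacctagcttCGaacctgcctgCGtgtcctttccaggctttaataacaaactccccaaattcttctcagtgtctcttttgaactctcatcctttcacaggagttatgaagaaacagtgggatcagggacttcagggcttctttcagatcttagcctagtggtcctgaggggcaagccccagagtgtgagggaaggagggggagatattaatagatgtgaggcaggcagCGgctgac
These hold 15, 18, 12 and 3 CG dinucleotides in 250 bases, each read 5′ to 3′ on the gene's strand (CG reads the same on both strands), where the median of 32851 RefSeq promoter windows of the same length was 6. As many CG dinucleotides or more were found in 27.3, 21.7, 33.5 and 70.97% of those windows. For Acyp2 and Asb13 the window lies partly or wholly inside the annotated span of the gene. The sequences are those of the reference strain, and methylation was not analysed here.

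Rfc3, a subunit of the clamp loader of DNA replication (chromosome 5, 151642817 to 151651208), was at 22.05 and 23.4 CPM in Ch5, 48.9 and 50.03 in Ch7 and 55.1 and 61.9 in Ch8 (overall adjusted p = 0.000194). Its allelic ratio was 0% in Ch5 (95% Wilson interval 0 to 0.915%, 416 reads), 50.5% in Ch7 (95% Wilson interval 47.2 to 53.7%, 888 reads) and 53.9% in Ch8 (95% Wilson interval 50.7 to 57.2%, 903 reads) (allelic adjusted p = 4.25e-87). By allele, the gene had 0 Cast and 7.57 129 CPM in Ch5, 7.94 Cast and 7.83 129 CPM in Ch7 and 9.49 Cast and 8.11 129 CPM in Ch8, so the 129 level was close in the 3 clones and no Cast read was seen in Ch5. Acyp2, an acylphosphatase (chromosome 11, 30505992 to 30649608), was at 3.89 and 4.36 CPM in Ch5, 11.4 and 10.1 in Ch7 and 8.87 and 11.52 in Ch8, with a ratio of 0% in Ch5 (95% Wilson interval 0 to 3.66%, 101 reads), 56.3% in Ch7 (95% Wilson interval 50.4 to 62.03%, 277 reads) and 57% in Ch8 (95% Wilson interval 50.1 to 63.7%, 200 reads). Its allele levels were 0 Cast and 1.85 129 CPM in Ch5, 2.76 Cast and 2.13 129 CPM in Ch7 and 2.22 Cast and 1.67 129 CPM in Ch8. Gusb, the lysosomal beta-glucuronidase (chromosome 5, 129989011 to 130003049), had no Cast read in Ch5 either (0% in Ch5, 52.8% in Ch7 and 37.9% in Ch8), but its total, at 9.35 and 9.53 CPM in Ch5, 16.2 and 15.6 in Ch7 and 8.55 and 8.79 in Ch8, was as low in Ch8 as in Ch5, although Ch8 was read from both alleles, with 1.78 Cast and 2.91 129 CPM. The expression call of Gusb was lost without library 1 of Ch7.

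Asb13, a substrate receptor of ubiquitin ligases (chromosome 13, 3633589 to 3653822), was read from 129 in Ch5, from both alleles in Ch7 and from Cast in Ch8. Its ratio was 1.82% in Ch5 (95% Wilson interval 0.709 to 4.58%, 220 reads), 51.3% in Ch7 (95% Wilson interval 46.9 to 55.8%, 483 reads) and 99.5% in Ch8 (95% Wilson interval 97.4 to 99.9%, 216 reads) (allelic adjusted p = 2.09e-89). The total was 10.5 and 10.4 CPM in Ch5, 22.8 and 19.7 in Ch7 and 11.52 and 9.52 in Ch8 (log2 difference 1.02 ± 0.13 (SE), Ch7 minus Ch5, adjusted p = 0.00379), so the clone with both alleles had about the sum of the other two. The allele levels were 0.0706 Cast and 3.92 129 CPM in Ch5, 4.39 Cast and 4.14 129 CPM in Ch7 and 4.20 Cast and 0.0192 129 CPM in Ch8. Fam111a, a protease linked to replication, showed a graded form, with 43.4 and 37.6 CPM in Ch5, 50.5 and 52.3 in Ch7 and 25.4 and 24.2 in Ch8 and a ratio of 27.4% in Ch5, 52.1% in Ch7 and 97.3% in Ch8. Its 129 level was 15.5 CPM in Ch5, 12.9 in Ch7 and 0.334 in Ch8, and its Cast level was 5.84, 14.02 and 11.9 CPM.

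The other genes with the widest ratio ranges among those past both tests were of varied function. Aga, a lysosomal glycosylasparaginase, was at 8.91 and 8.09 CPM in Ch5, 1.55 and 2.01 in Ch7 and 6.81 and 7.64 in Ch8 with a ratio of 65.2% in Ch5, 0% in Ch7 and 68.8% in Ch8. Pldn (Bloc1s6), a subunit for the making of lysosome-related organelles, was at 10.7 and 11.51 CPM in Ch5, 25.3 and 26.7 in Ch7 and 24.9 and 25.4 in Ch8 with a ratio of 99.4% in Ch5, 38.9% in Ch7 and 35.4% in Ch8. It had 6.25 Cast and 0.0389 129 CPM in Ch5 and 6.25 Cast and 9.83 129 CPM in Ch7, an equal Cast level with the 129 level nearly absent in Ch5. Tagln2, an actin-binding protein on chromosome 1, was at 51.8 and 47.4 CPM in Ch5, 108 and 108 in Ch7 and 93.9 and 99.4 in Ch8 with 80.5% in Ch5, 27.6% in Ch7 and 44.5% in Ch8. Gbp7, an interferon-induced GTPase, was at 3.38 and 2.45 CPM in Ch5, 9.36 and 7.77 in Ch7 and 7.60 and 5.03 in Ch8 with 42.9% in Ch5, 12.6% in Ch7 and 77.1% in Ch8. In Aga the clone read from 129 alone (Ch7) and in Pldn the clone read almost wholly from Cast (Ch5) had the lowest total. Tagln2 was lowest in Ch5, read mainly from Cast, and highest in Ch7. Its 27.6% in Ch7 was near the median gene of chromosome 1 in that clone (32.6% Cast). In Gbp7 the order of the totals did not follow the ratios, and its expression call was lost without library 2 of Ch5 or either library of Ch7. Gstt1, a glutathione transferase, had 87.8% in Ch5, 1.08% in Ch7 and 2.55% in Ch8 and a small difference in total expression (3.65 and 4.04 CPM in Ch5, 6.39 and 6.14 in Ch7 and 6.10 and 7.26 in Ch8), and its call was lost under 9 of the alternatives tried. Gata4 had 45.3% in Ch5, 3.53% in Ch7 and 72.9% in Ch8. A2m, a protease inhibitor, had 28.5% in Ch5, 86.4% in Ch7 and 74.4% in Ch8, and was highest in Ch5 (20.3 and 18.2 CPM in Ch5, 10.6 and 11.05 in Ch7 and 11.7 and 11.3 in Ch8), the clone in which its reads came mainly from 129.

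A high level was not always a level from both alleles. Hepacam, highest in Ch7, had 48.9% in Ch5 (95% Wilson interval 41.7 to 56.1%, 180 reads), 10.03% in Ch7 (95% Wilson interval 8.07 to 12.4%, 748 reads) and 12.7% in Ch8 (95% Wilson interval 8.43 to 18.6%, 166 reads). The Ch7 libraries thus held 1.32 Cast and 11.9 129 CPM against 1.57 Cast and 1.68 129 CPM in Ch5. Mmp2 had 2.82% in Ch5, 39.1% in Ch7 and 42.8% in Ch8. Its levels were 0.487 Cast and 16.9 129 CPM in Ch5, 0.480 Cast and 0.752 129 CPM in Ch7 and 13.8 Cast and 18.4 129 CPM in Ch8, so both alleles were low in Ch7 and Cast alone was low in Ch5. Thbs2, highest in Ch7, had 51.6% in Ch5, 94.8% in Ch7 and 92.8% in Ch8. Hoxb6, low in Ch5, had 18.5% in Ch5, 80.8% in Ch7 and 69.6% in Ch8, on 27 allele-specific reads in Ch5. Hoxb9 had 8.11% in Ch5, 67.4% in Ch7 and 57.96% in Ch8, on 37 reads in Ch5. Both were read mainly from 129 in Ch5, where they were lowest, while Hoxb6 was read mainly from Cast in Ch7 and Ch8, and Hoxb9 mainly from Cast in Ch7 and from both alleles in Ch8. Serpinh1, the collagen chaperone, was at 216 and 263 CPM in Ch5, 383 and 394 in Ch7 and 415 and 465 in Ch8 with 99.9% in Ch5, 48.96% in Ch7 and 56.8% in Ch8. Mt3 had 11.8% in Ch5, 59.3% in Ch7 and 61.2% in Ch8.

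The 6 genes with the widest ratio ranges among those that passed the allelic test alone had totals that did not pass the expression test. Zfp607, a zinc finger gene, had 98.8% in Ch5, 43.6% in Ch7 and 2.30% in Ch8 and a total of 3.82 and 2.80 CPM in Ch5, 6.15 and 5.73 in Ch7 and 4.04 and 2.69 in Ch8 (overall adjusted p = 0.0935). Pramef8 had 0% in Ch5, 62.02% in Ch7 and 0% in Ch8 at 11.7 and 11.2 CPM in Ch5, 14.6 and 14.4 in Ch7 and 10.3 and 10.8 in Ch8 (overall adjusted p = 0.0761). Trim56, a ubiquitin ligase of antiviral responses, had 2.21% in Ch5, 40.5% in Ch7 and 46.01% in Ch8 at 19.1 and 17.4 CPM in Ch5, 24.8 and 24.9 in Ch7 and 25.3 and 19.5 in Ch8 (overall adjusted p = 0.162). In each of the 6 genes the clone with the lowest mean was one read mainly from 1 allele, so a test that was not passed does not show equal levels. Rnf135, another ubiquitin ligase, had 50.5% in Ch5, 98.98% in Ch7 and 63.97% in Ch8 at 3.11 and 3.85 CPM in Ch5, 2.74 and 3.31 in Ch7 and 3.92 and 5.34 in Ch8. Mmp16, a membrane-bound matrix protease, had 58.9% in Ch5, 3.12% in Ch7 and 54.8% in Ch8 at 11.3 and 7.51 CPM in Ch5, 5.98 and 5.10 in Ch7 and 12.5 and 8.18 in Ch8, where Ch5 and Ch8 overlapped and Ch7 lay below both. Gfra4, a receptor of the GDNF family, had 83.9% in Ch5, 44.3% in Ch7 and 35.9% in Ch8 at 2.01 and 2.26 CPM in Ch5, 4.12 and 3.53 in Ch7 and 1.86 and 3.19 in Ch8.

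**Figure D3:**
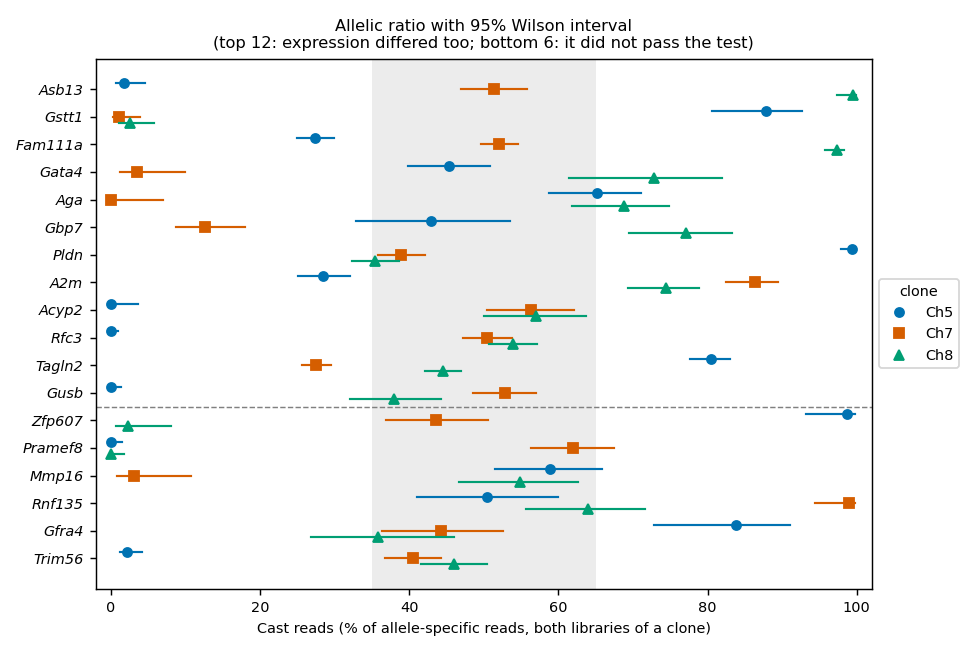
Allelic ratio, as Cast reads in percent of the allele-specific reads of both libraries of a clone, with 95% Wilson intervals (counting error only), for the 12 genes past both tests and the 6 past the allelic test alone; the grey band marks 35 to 65%. Rfc3, Acyp2 and Gusb lie at 0% in Ch5, and Asb13 runs from 1.82% in Ch5 to 99.5% in Ch8.

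Allelic imbalance was then counted among the varying genes as a whole. With imbalance taken as a ratio under 35% or over 65% in at least 1 clone, 426 of 794 genes past the expression test were imbalanced (53.7%, 95% Wilson interval 50.2 to 57.1%), against 2265 of 9659 other genes (23.4%). Without chromosomes 1 and 12 and the unequal windows these became 349 of 700 (49.9%) and 1390 of 8709 (16.0%). A ratio under 15% or over 85% in at least 1 clone, called monoallelic, was found in 114 of the 700 (16.3%) and in 215 of the 8709 (2.47%). Few reads give extreme ratios by sampling alone, so the shares were read within classes of depth, also without those chromosomes and windows. With a mean of 20 to under 100 allele-specific reads per clone the share was 78.0% for varying genes and 52.2% for others, with 100 to under 300 reads 62.1 and 19.2%, with 300 to under 1000 reads 43.4 and 6.68%, and with 1000 or more 18.9 and 4.55%. The classes are by the mean over the clones, so the depth of a gene's lowest clone was not matched between the 2 groups. No test was made on these shares, since genes are not replicates. The share among varying genes was 53.5% from library 1 of each clone alone and 52.4% from library 2 alone.

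**Figure D4:**
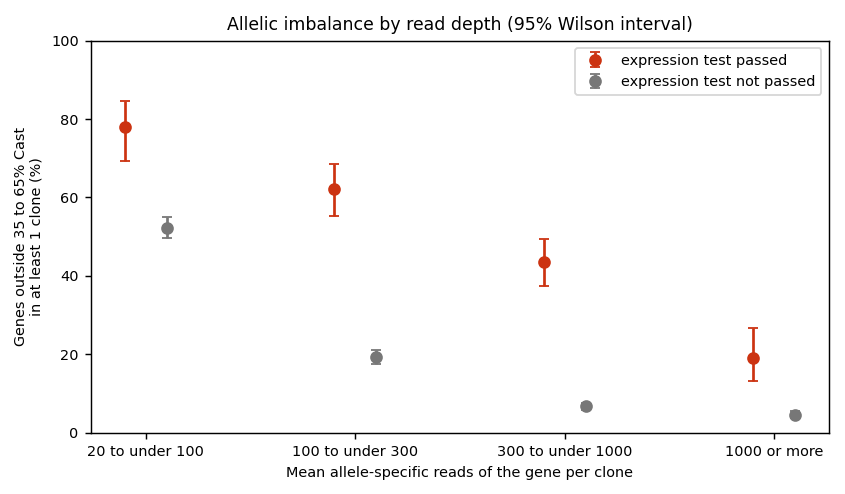
Share of genes outside 35 to 65% Cast in at least 1 clone, in percent, by mean allele-specific reads per clone, for genes that passed the expression test (red) and genes that did not (grey), without chromosomes 1 and 12 and windows of unequal balance. Bars are 95% Wilson intervals; the shares fall with depth in both groups, from 78.0 to 18.9% and from 52.2 to 4.55%.

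Read from the allelic side, the 9409 genes without chromosomes 1 and 12 and the unequal windows were classed by their ratios and their expression calls counted, a comparison added after the data were seen. Of 7670 genes that were biallelic (35 to 65%) in all 3 clones, 351 (4.58%) differed in expression. Of 129 genes that were monoallelic in all 3 clones 24 (18.6%) did, and of 101 genes that were monoallelic in some clones and biallelic in others 60 (59.4%, 95% Wilson interval 49.7 to 68.5%). Over all 10453 genes the counts were 368 of 7762 (4.74%), 58 of 542 (10.7%) and 62 of 105 (59.05%) in the same order. Of 7 genes monoallelic from opposite alleles in different clones, 5 differed in expression. The median log2 difference between the highest and lowest clone was 0.20 in genes biallelic throughout and 1.03 in genes that were monoallelic in some clones and biallelic in others.

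For those 101 genes the monoallelic clone could be set beside the biallelic clone of the same gene, in 166 pairs of clones (a gene could give more than 1 pair). Total expression was lower in the monoallelic clone in 139 of the 166 pairs (83.7%), with a median log2 difference of -0.80 and quartiles of -1.14 and -0.31, where a loss of 1 of 2 equal alleles would be -1. With chromosomes 1 and 12 and the unequal windows included it was lower in 141 of 170 pairs, with a median of -0.79. Of the 166 pairs, 86 passed the pairwise expression test with the lower level in the monoallelic clone and 11 with the higher level. Reads that carried no allele, and so did not define the classes, gave a median of -0.74. The active allele itself had a median difference of 0.03 (quartiles -0.22 and 0.41) and the other allele -3.09, and these come from the reads that defined the classes and are a description only. Where both clones had 50 or more such reads, 106 pairs gave a median of -0.79. By clone, the median was -0.84 over 76 pairs monoallelic in Ch5, -0.69 over 42 in Ch7 and -0.78 over 48 in Ch8, and it was -0.80 with Cast and -0.82 with 129 as the active allele. The pairs with the higher level in the monoallelic clone included Hepacam, Clu and Thbs2, monoallelic in Ch7 and biallelic in Ch5, and Mmp2, monoallelic in Ch5 and biallelic in Ch7.

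**Figure D5:**
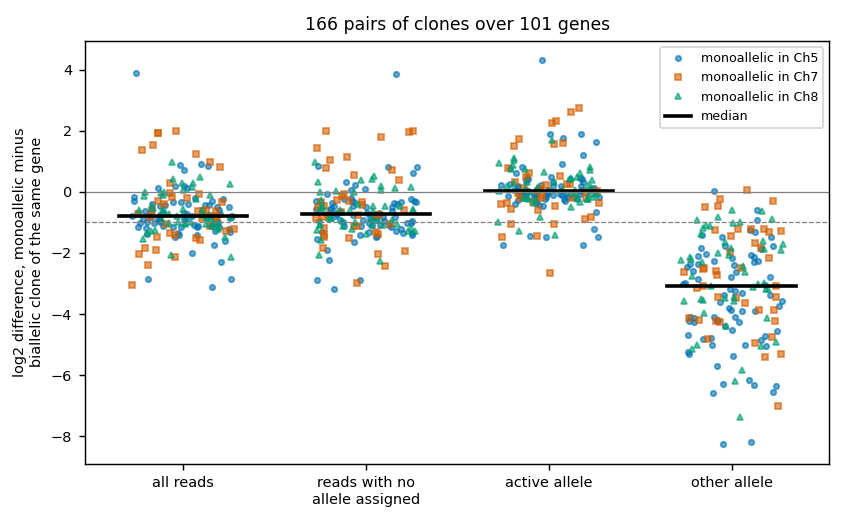
Difference in level on the log2 scale between the clone in which a gene was monoallelic and a clone in which it was biallelic, for 166 pairs over 101 genes, from all reads, reads with no allele, the active allele and the other allele. Points are pairs, coloured by the monoallelic clone, black bars are medians, and the dashed line marks -1; the medians are -0.80, -0.74, 0.03 and -3.09.

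Genes that the study drew on as randomly monoallelic in NPCs, from earlier work, were set beside these results. Of the 202 genes of that earlier list that could be tested, 67 (33.2%) differed in expression (45 and 43 without library 1 and 2 of Ch7), 23 of them highest in Ch5, 28 in Ch7 and 16 in Ch8, and of 129 with enough allele-specific reads 39 (30.2%) differed in allelic ratio, 26 in both. By mean level the shares past the expression test were 17.4% under 1 CPM, 28.6% from 1 to under 5, 48% from 5 to under 20 and 41.7% at 20 CPM or more, against 3.35, 7.21, 9.59 and 6.28% of all genes in those classes. The list was made in earlier work on NPC clones for its allelic pattern, and no test of the share was made.

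The genes the study followed closely fell on both sides. A2m, Acyp2, Cnrip1, Grik2 (a kainate receptor subunit) and Eya1 passed the expression test. Eya1, a transcriptional coactivator and phosphatase, was at 20.7 and 20.5 CPM in Ch5, 14.4 and 12.6 in Ch7 and 19.8 and 18.05 in Ch8 with an even ratio throughout (47.5% in Ch5, 47.8% in Ch7 and 47.7% in Ch8) and a call that was lost without either library of Ch5 or of Ch7. Cnrip1 was read from 129 alone in Ch7 and from both alleles in Ch8 (0% and 64.4% Cast, on 136 and 250 reads). Its mean level was 5.56 CPM in Ch7 and 11.3 in Ch8. Bag3, a co-chaperone, had 75.5% in Ch5, 56.2% in Ch7 and 99.7% in Ch8 but a total of 14.2 and 19.6 CPM in Ch5, 23.05 and 18.6 in Ch7 and 14.9 and 14.1 in Ch8 that did not pass (overall adjusted p = 0.193). App, the amyloid precursor protein, was at 201 and 201 CPM in Ch5, 161 and 161 in Ch7 and 162 and 167 in Ch8 (overall adjusted p = 0.0771), and Eya2, Eya3 and Eya4 did not pass either, while Ptk2b, under 0.2 CPM in every library, was not tested.

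The places of the varying genes along the chromosomes were compared with those of other genes, as a description with no test. Of 1041 varying genes with a position, 212 (20.4%) had a varying gene as an adjacent tested gene, against 14.04% of the genes that did not vary. In 125 of the 212 an adjacent varying gene had the same highest clone. The share of varying genes per chromosome ran from 4.51% on chromosome 17 to 11.01% on X, and no chromosome had a median log2 difference between clones outside -0.0559 to 0.0506.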

How the data were processed

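RNA-seq of rRNA-depleted total RNA was analysed for 6 libraries, 2 of each of the NPC clones Ch5, Ch7 and Ch8. The authors aligned stranded paired-end reads to a GRCm38 (mm10) genome masked at Cast and 129 SNPs with TopHat2 2.1.0, split them by allele with SNPsplit, and counted reads per gene with featureCounts 1.5.1, as the methods and the submitters' processing notes state. The deposited values are read counts per gene, as whole numbers: all reads, Cast reads and 129 reads. The deposited allelic ratio, a fraction, was not used and was recomputed from the counts.

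Genes were kept by edgeR's filterByExpr and scaled by TMM (factors 0.942 to 1.04). Expression was tested with edgeR 4.0.16 quasi-likelihood F tests (R 4.3.3) over the 3 clones and for each pair, allelic ratios with a quasi-likelihood test of clone by allele on Cast and 129 counts of the same libraries, and p-values were adjusted by the Benjamini-Hochberg method over all genes tested (adjusted p under 0.05). The scripts were tested on simulated data. Reads with no allele are all reads minus both alleles. On the log2 scale, CPM had a prior count of 2, and allele and unassigned levels a pseudocount of 0.1 CPM. Allele-specific reads numbered 5060713 to 5971768 per library, at least 20 per gene and clone were required, and Wilson intervals cover counting error only, since PCR copies were not identified. Ratios under 15% or over 85% were called monoallelic and those from 35 to 65% biallelic. Windows of 20 Mb with a median outside 40 to 60% were called unequal. Symbols and positions came from RefSeq (GRCm38.p6), and neighbours were adjacent tested genes with a position.

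The 2 libraries of each clone differed by more than sampling noise (median chi-square per gene 1.33 to 4.41, 1 degree of freedom) and were kept as 2 samples. Named genes were, for each clone, the 8 highest and 4 lowest by the gap to the nearer clone among called genes with at least 5 CPM in a clone and both libraries apart from the other 4, the 12 past both tests and the 6 past the allelic test alone with the widest ratio range (at least 50 allele-specific reads per clone), list members that passed, and the 13 genes the study followed. Some of the genes so chosen are not reported here. Genes with wide values named beside these were chosen after their values were seen. The clones and gene lists were chosen with earlier results of these data known. The Ch3 clone entered 1 alternative, and astrocyte and other libraries were not analysed here.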

Additional observations from a re-analysis of the deposited data

How the results depend on the processing

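The balance of directions between Ch7 and Ch5 turned with the scaling, from 429 higher and 356 lower to 266 and 484 with library totals, and the counts moved as follows. With no filter on low counts 2338 genes differed among the 3 clones (all 1112 among them), 1552 between Ch7 and Ch5, 1262 between Ch8 and Ch5 and 1151 between Ch8 and Ch7. At an adjusted p under 0.01 the counts were 505, 299, 268 and 272, and with an absolute log2 difference of at least 1 they were 546, 316, 294 and 285. DESeq2 gave 1250 (1026 shared), relative log expression factors 1104, library totals 1084, a mean of at least 1 CPM 966, a fit with the Ch3 libraries 1391 and, chosen after seeing the data, protein-coding genes alone 1545. Leaving out 1 library, where the lone library is assumed to vary like the others, gave 452 to 1372 for the 3 clones, 190 to 1174, 288 to 623 and 159 to 592 for the pairs in the same order, and 218 to 290 for the allelic ratio. Whether the library numbers pair the samples was not settled. Deviations of libraries 1 correlated at 0.0238 for Ch5 and Ch7, 0.304 for Ch5 and Ch8 and -0.103 for Ch7 and Ch8, so a shared pattern was seen for Ch5 and Ch8 only. With the replicate block the counts were 1676, 1228, 939 and 883, and 335 for the allelic ratio. The allelic count was 744 by a chi-square test of summed counts, which ignores the spread between libraries, and 192 with a range of at least 20 points. The share of varying genes that were imbalanced was 48.6% with at least 50 allele-specific reads, 68.3% with limits of 40 and 60%, 19.9% for monoallelic genes only, 63.9% at an expression adjusted p under 0.01 and 49.9% without unequal windows and chromosomes. The median difference between monoallelic and biallelic clones, a result and alternatives all added after seeing the data, was -0.80 and became -0.74 from reads with no allele and -0.78 from library 2 alone. The cause of these moves was not tested beyond what each setting changes by construction. Of 3800 values for single genes under the alternatives, none changed sign, 483 lost the call and 20 gained it. The 132 genes with a lost call included those named with a lost call above.

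With 2 libraries per clone, small differences and genes of low level are weakly measured, and a ratio on few allele-specific reads is imprecise. Every clone is 1 line, so how far these differences hold for other clones of the same stem cells cannot be told from these data.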
